A study of Mus musculus with 40 samples.

Results

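miR-103-3p and miR-107-3p are a pair of near-identical microRNAs whose hairpins lie inside the genes for pantothenate kinases, and their levels were followed in the blood of ageing mice. The members were taken by name from the count table, which gave 2 of its 1915 microRNA rows. Both rows held reads in each of the 40 libraries and passed the filter of more than 100 reads in 50% of the libraries, as did 105 rows in all. The members, mmu-miR-103-3p and mmu-miR-107-3p in the table, were chosen by their measured levels at the 4 ages in these same libraries, so those levels and their differences between ages are given as a description and without a test.

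Small RNA was sequenced from total blood of wild-type mice at 4 ages (12, 13.5, 15 and, the oldest, 16.5 months), with 10 libraries per age. The study used single-housed male C57B/6J mice, bled repeatedly from the orbital sinus, and trained a group of them in a water maze before each of the later bleedings, so that age, rounds of maze training and earlier bleedings rise together and cannot be told apart. Its account differs on whether the bleeding at 12 months came before or after a first habituation to the maze. No genotype or drug differs between the ages, and the labels do not tell which library came from which animal, or from a trained or a home cage mouse. The libraries held 2469200 to 21386200 counts, and reads outside the red-cell microRNA miR-486, which fills most of each library, numbered 93002 to 1739960.

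MicroRNAs guide Argonaute proteins to messenger RNAs, mainly through bases 2 to 8 at the 5′ end, called the seed, so microRNAs with 1 seed share most predicted targets. Pantothenate kinases start the synthesis of coenzyme A, and miR-103 and miR-107 are transcribed within introns of their genes in vertebrates. Both microRNAs are known as regulators of insulin sensitivity in liver and fat and of Dicer, the enzyme that cuts microRNA hairpins. In whole blood their source can be any blood cell, and fewer cells of a type and less microRNA per cell cannot be told apart in such bulk samples.

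The mature sequences of the pair, from RefSeq, are shown because everything that the table can separate rests on their 3′ end. The seed and the base that differs are in capitals.
miR-103-3p: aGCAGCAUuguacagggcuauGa
miR-107-3p: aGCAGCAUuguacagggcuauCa
Both have 23 bases, of which 22 are identical, and the difference is G22C, counted from the 5′ end. Of 1679 mature mouse names in the sequence table, only these 2 carry the seed GCAGCAU. The first 21 bases are the same, and the study kept reads from 18 bases upward without mismatches, so a read that ends before base 22 matches both microRNAs.

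3 hairpin genes make the pair, and each lies in an intron of a pantothenate kinase gene on the same strand (GRCm38, GENCODE M21). Mir103-1 is at chr11:35782396-35782481, plus strand, in Pank3. Mir103-2 is at chr2:131288052-131288137, plus strand, in Pank2. Mir107 is at chr19:34820687-34820773, minus strand, in Pank1. In each host the hairpin sat in intron 5 of 6 of a coding transcript, and it overlapped no annotated exon of another gene. The 3 introns differ in length, with 1740 bases in Pank3, 5801 in Pank2 and 7282 in Pank1.

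The stretch of each hairpin within which the study counted a read, from 2 bases before the mature 3p sequence to 5 bases after it, is printed with the bases that differ between the hairpins in capitals.
Mir103-1: caagcagcauuguacagggcuauGaaGgCa
Mir103-2: caagcagcauuguacagggcuauGaaAgAa
Mir107: caagcagcauuguacagggcuauCaaAgCa
From the start of the mature sequence, Mir103-1 and Mir103-2 share 24 bases and each of them shares 21 with Mir107. The mature miR-103-3p is thus the product of both Mir103 hairpins, whose reads the study summed, and a read of it without a longer 3′ tail cannot be assigned to Pank3 or Pank2. The miR-103-3p count was even in 22 of 40 libraries and odd in the others, so its reads were not all entered an even number of times.

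miR-103-3p was a moderately abundant blood microRNA, ranked 35 of the 1016 rows with any read by its mean share of counts, and miR-107-3p ranked 53. The miR-103-3p row held 136 to 5013 reads per library with a median of 1735.5, and the miR-107-3p row held 56 to 2136 with a median of 729.5. Of the reads outside miR-486, miR-103-3p took 0.273% ± 0.0833 (SD, n = 40) and miR-107-3p 0.119% ± 0.0371 (SD, n = 40). Both sequences have the same length, but the miR-103-3p row sums 2 hairpins and the rows can hold some of the same reads.

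The miR-103-3p level is given as log2 CPM, the log2 of the counts relative to a library total that TMM had adjusted, on the premise that most microRNAs keep their level. At 12 months it ranged from 7.05 to 7.71 with a median of 7.24. At 13.5 months the lowest, median and highest libraries were at 7.40, 7.72 and 8.38. At 15 months they were at 6.81, 7.01 and 7.36, and at 16.5 months at 6.62, 6.95 and 7.42. The 13.5-month libraries were highest by median but overlapped those of 12 months, with 5 of 10 above the highest of that age. All 10 libraries of 15 months lay below the lowest of 13.5 months, and 9 of 10 did so at 16.5 months.

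The 12-month mean of miR-103-3p was 7.31 ± 0.22 log2 CPM and the 13.5-month mean 7.75 ± 0.26 (SD, n = 10 each). The 15-month mean was 7.04 ± 0.19 and the 16.5-month mean 6.98 ± 0.25 (SD, n = 10 each). The order was 13.5, 12, 15 and 16.5 months from high to low. The fitted log2 fold change against 12 months was 0.45 (SE 0.11) at 13.5 months, -0.27 (SE 0.11) at 15 months and -0.33 (SE 0.11) at 16.5 months, which is 1.36 times, 0.829 times and 0.797 times the 12-month level. From 13.5 months it was -0.72 (SE 0.11) to 15 months and -0.77 (SE 0.11) to 16.5 months. The step from 12 to 13.5 months exceeded the pooled SD of 0.24 and that from 12 to 15 months the SD of 0.20. The ages 15 and 16.5 months, at a log2 fold change of -0.06 (SE 0.11), did not differ beyond their spread of 0.22.

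The miR-107-3p level at 12 months ranged from 5.70 to 6.46 log2 CPM with a median of 6.01. At 13.5 months the lowest, median and highest libraries were at 6.11, 6.50 and 6.97. At 15 months they were at 5.72, 5.96 and 6.50, and at 16.5 months at 5.34, 5.65 and 5.99. Here all 10 libraries of 16.5 months lay below the lowest of 13.5 months, while 7 of 10 did so at 15 months.

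The 12-month mean of miR-107-3p was 6.04 ± 0.26 log2 CPM and the 13.5-month mean 6.55 ± 0.28 (SD, n = 10 each). The 15-month mean was 6.00 ± 0.23 and the 16.5-month mean 5.69 ± 0.21 (SD, n = 10 each), in the same order as for miR-103-3p. Its log2 fold change against 12 months was 0.52 (SE 0.12) at 13.5 months, -0.05 (SE 0.12) at 15 months and -0.36 (SE 0.12) at 16.5 months. From 13.5 months it was -0.57 (SE 0.12) to 15 months and -0.88 (SE 0.12) to 16.5 months, the latter 0.545 times the 13.5-month level. Levels at 12 and 15 months did not differ beyond their spread (pooled SD 0.25), and the sign of that small difference turned under other settings, between -0.88 and 0.07. The step from 15 to 16.5 months, -0.31 (SE 0.12), exceeded its pooled SD of 0.22.

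**Figure D1:**
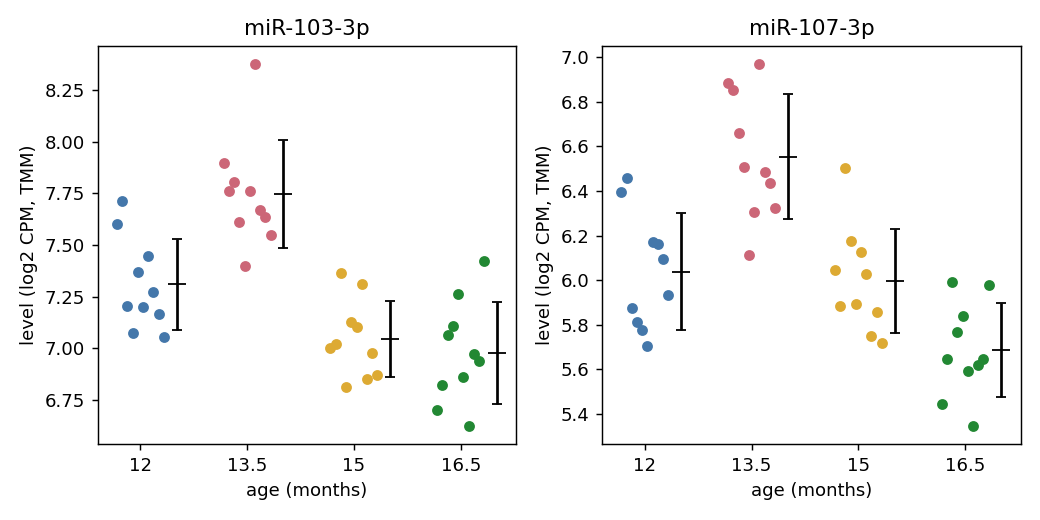
Level of miR-103-3p and miR-107-3p in log2 CPM (TMM scaling) against age in months, 1 point per library and 10 libraries per age, with the mean and SD as a bar beside the points; the sideways spread only separates the points. The means of 13.5 months are the highest in both panels, 7.75 and 6.55, with ranges that overlap those of 12 months, and those of 16.5 months have the lowest means, 6.98 and 5.69.

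Among the 105 microRNAs, 1.90% were lower in every 15-month library than in any of 13.5 months, miR-103-3p among them, and 3.81% were lower in every 16.5-month library than in any of 13.5 months, miR-107-3p among them. Since these ages were part of what singled the pair out, nothing is read from its place among them. The ages of maximum and minimum were shared by others. With the pair included, 16 of the 105 microRNAs had their highest mean at 13.5 months and their lowest at 16.5 months. The age means of miR-103-3p spanned 0.77 on the log2 scale and those of miR-107-3p 0.87, against a median span of 0.63 over the 105.

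1 library at 13.5 months stood above the rest for miR-103-3p, at 8.38 against 7.90 for the next, and it was also the highest of its age for miR-107-3p. Without it, the step from 12 to 13.5 months was 0.33 (SE 0.09) for miR-103-3p and 0.43 (SE 0.11) for miR-107-3p on the log2 scale. The step from 13.5 to 16.5 months was then -0.65 (SE 0.10) and -0.79 (SE 0.11). The smallest library, of 16.5 months, held 136 reads of miR-103-3p and 56 of miR-107-3p, and leaving it out changed the 16.5 v 12 months values to -0.29 (SE 0.11) and -0.32 (SE 0.12).

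The scaling matters for the steps that involve 15 months, when miR-486 filled more of the libraries. With library totals alone, the median step over all 105 microRNAs shifted, in log2 units, to -0.84 from 12 to 15 months, to -0.81 from 13.5 to 15 months and to 0.64 from 15 to 16.5 months. On that scale miR-103-3p changed by -1.06 (SE 0.26), -1.51 (SE 0.26) and 0.56 (SE 0.25), and miR-107-3p by -0.88 (SE 0.23), -1.40 (SE 0.23) and 0.34 (SE 0.23), so that the step from 15 to 16.5 months turned its sign. Relative to the median of all 105, miR-103-3p lay at -0.08 and miR-107-3p at -0.30 in that step with library totals, and at -0.11 and -0.36 with TMM. At 13.5 v 12 months the pair lay above that median by 0.41 to 0.44 for miR-103-3p and 0.48 to 0.51 for miR-107-3p in all 4 scalings, and at 16.5 v 13.5 months below it, at -0.80 to -0.76 and -0.90 to -0.86.

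**Figure D2:**
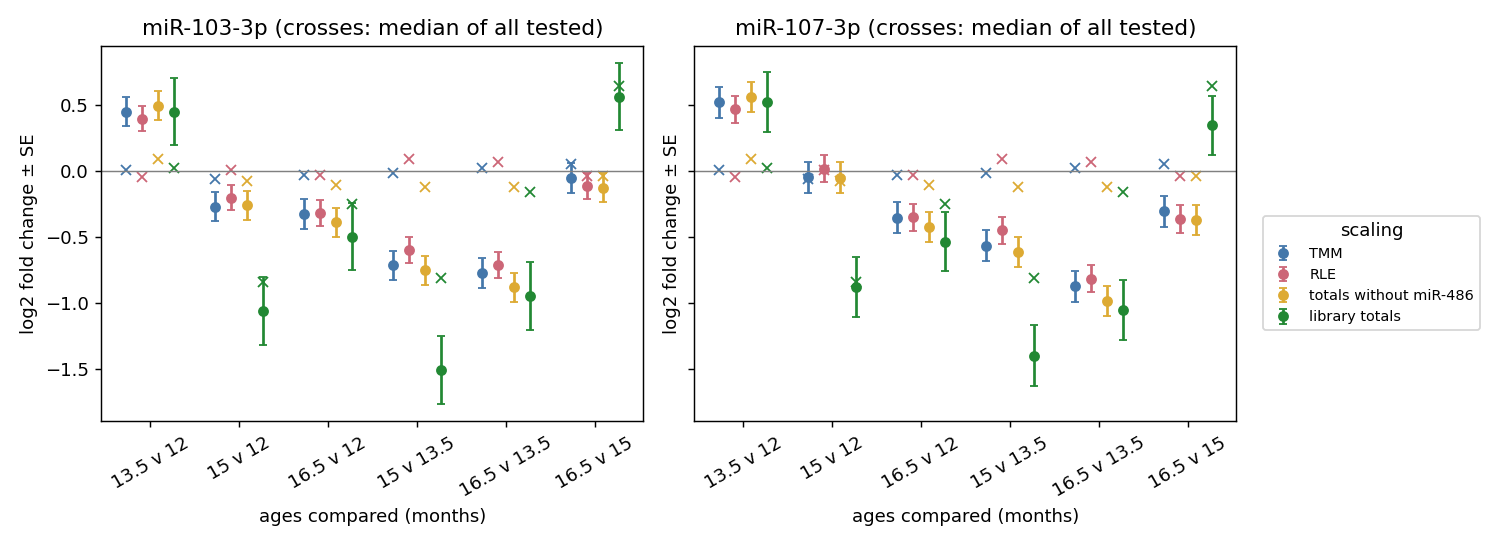
Log2 fold change of miR-103-3p and miR-107-3p with its standard error (vertical axis) for 6 comparisons of ages in months (horizontal axis), under 4 scalings: TMM, median-ratio size factors (RLE), library totals without the miR-486 rows and library totals. Crosses mark the median of all microRNAs in the same fit. Values at 13.5 v 12 months lie between 0.39 and 0.56 under each scaling, while library totals move the points and the crosses together by about the same amount wherever 15 months is involved.

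Red-cell microRNAs filled most of each library, with the highest share at 15 months. The list of 6 rows (miR-486a-5p and miR-486b-5p, counted once, miR-451a, both strands of miR-144 and miR-16-5p) took 87.5% to 92.1% of counts at 12 months, 86.5% to 91.6% at 13.5 months, 91.8% to 96.7% at 15 months and 85.0% to 93.9% at 16.5 months. Its medians were 89.0%, 89.3%, 93.2% and 88.7%, so they differed little between 12, 13.5 and 16.5 months. The calls kept miR-486a-5p and miR-486b-5p as separate rows, so the same reads can enter 2 of the calls. Of the 5 rows of the list that were tested, 0 rose and 2 fell from 12 to 13.5 months. From 13.5 to 15 months 3 rose and 1 fell (edgeR, adjusted p under 0.05). At 16.5 months 0 of the 5 were called against 12 months, and 1 was higher and 0 lower against 13.5 months. Red-cell calls from 12 to 15 months comprised 2 rises and 1 fall. Going from 15 to 16.5 months, 2 of the 5 fell and 0 rose. Of all microRNAs tested, 15.2% rose and 14.3% fell from 12 to 13.5 months. From 13.5 to 15 months 17.1% of them rose and 30.5% fell. In the oldest mice 13.3% were higher and 10.5% lower than in the 12-month libraries. Relative to the 13.5-month libraries, the oldest had 18.1% higher and 21.9% lower. The 3 lymphocyte rows (miR-150-5p, miR-342-3p and miR-155-5p) had median shares of 0.0530%, 0.0848%, 0.0358% and 0.0736% from the youngest to the oldest age, and the 4 of myeloid cells and platelets 0.648%, 0.526%, 0.443% and 0.520%. Both lymphocyte rows tested were higher at 16.5 than at 12 months, and 1 of the 2 was higher at 16.5 than at 13.5 months, as was 1 of the 2 against 15 months. Over all tested, the shares higher there were 13.3%, 18.1% and 19.0%. Of the 2 rows of myeloid cells and platelets tested, 1 was lower at 13.5 v 12 months and 1 higher at 15 v 13.5 months. The lymphocyte list and the list of myeloid cells and platelets held no call in their remaining comparisons. The defining liver microRNA miR-122-5p, the muscle microRNA miR-1a-3p and the brain microRNA miR-124-3p had a median of 0 reads. The whole muscle list (with miR-133a-3p) had median shares of 0.000355% to 0.0009% of counts over the ages, and the brain list (with miR-9-5p) of 0% to 3.33e-05%. The part of these cell types in the levels of the pair was not tested. The column names at 15 months come in 2 forms whose meaning is not given. For miR-107-3p the 3 libraries of one form lay between 5.88 and 6.50 log2 CPM and the other 7 between 5.72 and 6.17, so that they overlapped.

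The rows of the pair can hold some of the same reads, so their ratio in each library was examined. miR-103-3p exceeded miR-107-3p in 40 of 40 libraries, by 80 to 2877 counts. The miR-103-3p row sums both Mir103 hairpins, so a read that matches both microRNAs may be entered more often there. As a reference, if all reads were shared and the miR-103-3p row counted them in both hairpins, the ratio would be 0.5. Not all reads were entered in that way, since the miR-103-3p count was even in only 22 of the 40 libraries. Because shared reads may be entered more often in the miR-103-3p row, its excess is not a count of reads that only miR-103-3p held. The miR-107-3p count was 0.416 ± 0.0465 times the miR-103-3p count at 12 months and 0.439 ± 0.0506 times it at 13.5 months (SD, n = 10 each). It was 0.488 ± 0.0688 times that count at 15 months and 0.409 ± 0.0321 times at 16.5 months (SD, n = 10 each). The ratio rose above 0.5 in 5 libraries, 4 of them of 15 months and 1 of 13.5 months.

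At 15 months the ratio ran from 0.410 to 0.642 with a median of 0.462, and at 12 months from 0.331 to 0.475 with a median of 0.418, so the ranges overlapped. The highest, 0.642, came from a 15-month library with 204 miR-107-3p and 318 miR-103-3p reads, where miR-107-3p was 39.1% of both rows (95% Wilson interval 35.0 to 43.3%, counting error only). The miR-103-3p row held 258 to 1070 reads at 15 months. The library with the fewest in that row, 136, was of 16.5 months and had a ratio of 0.412. Over the 40 libraries, the slope of log2 miR-107-3p counts on log2 miR-103-3p counts was 0.947 (SE 0.0219). A slope under 1 goes with a higher ratio at lower counts over all ages pooled. The ages differed in both counts and ratio, and no slope was fitted within an age. Counting error in the miR-103-3p row can also lower such a slope. With all reads of an age added up, the ratio was 0.418 at 12, 0.442 at 13.5, 0.470 at 15 and 0.397 at 16.5 months. The mean log2 ratio of miR-107-3p to miR-103-3p was -1.27 at 12 months, -1.05 at 15 months and -1.29 at 16.5 months. The rows thus came closer from 12 to 15 months and moved apart from 15 to 16.5 months. From 12 to 15 months the miR-103-3p row changed by -0.27 and the miR-107-3p row by -0.05 on the log2 scale, and from 15 to 16.5 months by -0.06 and -0.31. The part of read length or depth in these changes of the ratio was not tested.

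**Figure D3:**
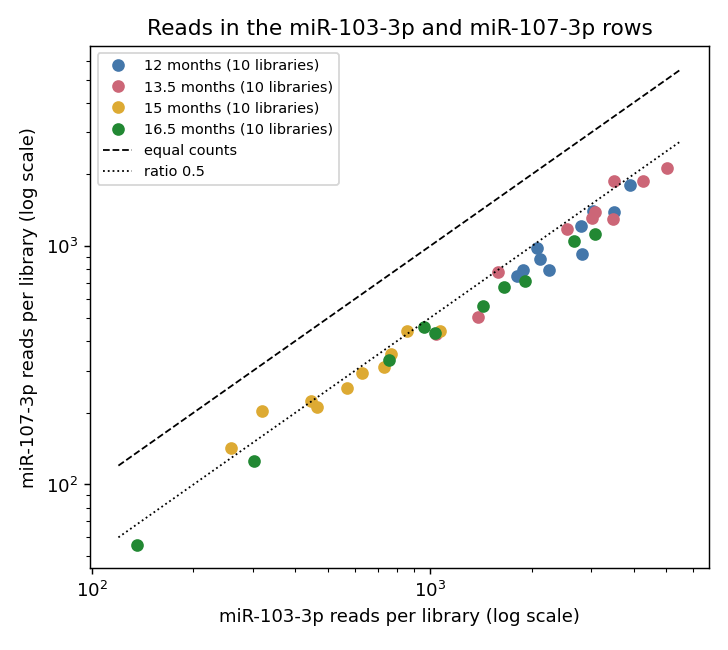
Reads in the miR-107-3p row against reads in the miR-103-3p row, both on log scales, 1 point per library and 10 libraries per age. The dashed line marks equal counts and the dotted line a ratio of 0.5; all 40 libraries lie below the dashed line, and 4 of the 5 above the dotted line are of 15 months.

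The opposite strands of the hairpins, which the choice of the pair did not use, were barely present. miR-103-1-5p held 4 reads over the 40 libraries, miR-103-2-5p 59 reads in 27 libraries and miR-107-5p 12 reads in 9 libraries. The 2 miR-103 5p strands differ by G1A and miR-103-2-5p differs from miR-107-5p by C16U, so these rows too can share reads. 5p reads were 0.0838% of the 5p and 3p reads of miR-103 (exact 95% interval 0.0644 to 0.107%, counting error only) and 0.0373% of those of miR-107 (exact interval 0.0193 to 0.0652%). The 3p strand was therefore nearly the sole product detected from these hairpins in blood. By age, the 5p share of miR-103 was 0.0840% at 12, 0.0587% at 13.5, 0.0818% at 15 and 0.136% at 16.5 months, on 22, 17, 5 and 19 reads. None of the 5p rows reached more than 1 read in 50% of the libraries, so they were in no fit and a change with age was not tested. The exact 95% intervals of the lowest and highest shares of miR-103, 0.0342 to 0.0940% at 13.5 and 0.0821 to 0.213% at 16.5 months, overlapped.

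The pair belongs to a wider group of microRNAs that carry AGCAGC near the 5′ end, a group often linked to the cell cycle and metabolism. A search for AGCAGC within bases 1 to 8 on the mature strand found 13 names, 0.774% of the 1679 in the sequence table, and 11 of them are not members. 3 of the 11 passed the filter, and they are shown with the seed in capitals because their motif sits 1 base further along than in the pair.
miR-15a-5p: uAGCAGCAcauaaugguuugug
miR-15b-5p: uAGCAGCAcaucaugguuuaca
miR-16-5p: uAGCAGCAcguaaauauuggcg
Of those below the filter, miR-195a-5p, miR-322-5p, miR-497a-5p and miR-503-5p had median counts of 86, 42.5, 10 and 1. The other 4 (miR-195b, miR-6342, miR-6353 and miR-6419) held 0 reads among 406820779, which allows up to 7.37e-07% of counts each.

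All 3 tested neighbours changed over the 4 ages (edgeR quasi-likelihood test, adjusted p over 105 microRNAs), against 61.0% of all microRNAs tested, so the count stands near the background. miR-15b-5p, which represses cell-cycle genes, had an adjusted p of 2.94e-09, miR-15a-5p, its close relative from the miR-15a and miR-16 cluster, 6.68e-05, and the red-cell-rich miR-16-5p 0.00757. The last of these was 0.0639 when 15 months was reduced to its 7 libraries with 1 form of name.

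At 15 v 13.5 months all 3 were lower, where 30.5% of all microRNAs tested were. The log2 fold changes there were -0.86 (SE 0.20, adjusted p = 0.000374) for miR-15a-5p, -1.03 (SE 0.13, adjusted p = 2.77e-08) for miR-15b-5p and -0.55 (SE 0.16, adjusted p = 0.00407) for miR-16-5p, beside -0.72 and -0.57 for the pair. The miR-16-5p call was lost in 2 of its 56 alternatives, without the 13.5-month library that was highest for the pair (-0.36, adjusted p = 0.0534) and with only the 7 libraries of 15 months (-0.43, adjusted p = 0.0583).

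At 16.5 v 13.5 months miR-15a-5p (-1.003, SE 0.20, adjusted p = 4.51e-05) and miR-15b-5p (-1.02, SE 0.13, adjusted p = 2.11e-08) were lower, 2 of 3 against 21.9% of all tested, and miR-16-5p was not called at -0.38 (SE 0.16, adjusted p = 0.0577, down to 0.000324 with 2 RUVs factors). At 13.5 v 12 months only miR-15b-5p of the 3 was higher (0.76, SE 0.13, adjusted p = 7.56e-06), where 15.2% of all tested were. That call was lost with library totals (0.75, adjusted p = 0.0668). In the same comparison miR-15a-5p stood at 0.43 (SE 0.19, adjusted p = 0.0825, but called with 1 and 2 RUVs factors at 1.6e-05 and 1.29e-05) and miR-16-5p at 0.05 (SE 0.16, adjusted p = 0.845), whose sign turned with RLE scaling and with DESeq2. Against 12 months, miR-16-5p was lower at 15 months (-0.50, SE 0.16, adjusted p = 0.0226, up to 0.107 in other settings), where 16.2% of all tested were, and miR-15a-5p at 16.5 months (-0.57, SE 0.19, adjusted p = 0.0273, up to 0.225), where 10.5% were. The miR-16-5p call was lost without 12-month library 1, 2, 3 or 4 (adjusted p = 0.0749, 0.0945, 0.0544 and 0.0857) or 15-month library 4 (0.0503), numbered in the order of the table. The miR-15a-5p call was lost without 12-month library 1 or 2 (adjusted p = 0.0589 and 0.0618) or 16.5-month library 7 (0.0537), the smallest library. None of the 3 was higher at 15 v 12, 16.5 v 12, 15 v 13.5 or 16.5 v 13.5 months, where 7.62%, 13.3%, 17.1% and 18.1% of all tested were. Between 15 and 16.5 months none was called in either direction, against 19.0% higher and 9.52% lower over all. With library totals alone, miR-15b-5p (0.62, adjusted p = 0.0474) and miR-16-5p (0.78, adjusted p = 0.0309) were called higher there, and miR-15a-5p turned from -0.15 to 0.42.

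**Figure D4:**
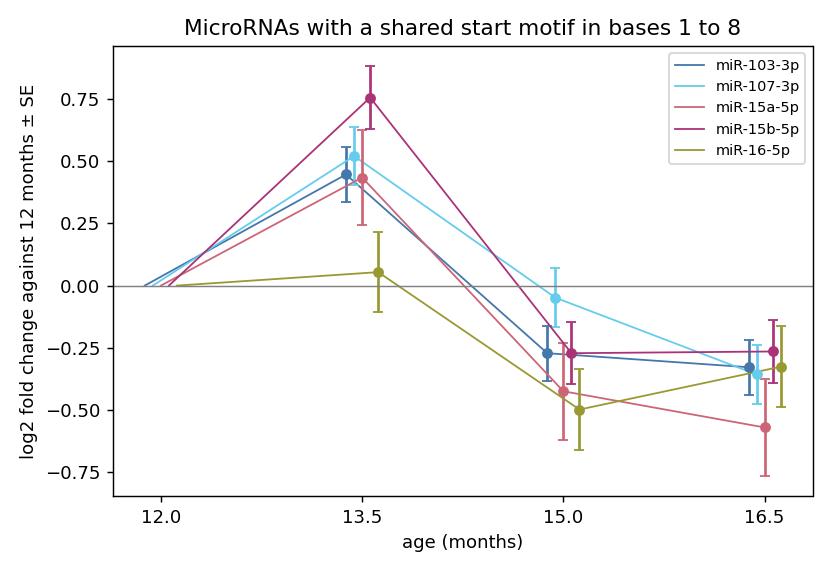
Log2 fold change against 12 months with its standard error (vertical axis) by age in months (horizontal axis) for the pair and the 3 other microRNAs tested that hold AGCAGC in bases 1 to 8; the 12-month value is 0 by definition and the sideways shift only separates the points. miR-15b-5p is highest at 13.5 months (0.76), the pair and miR-15a-5p lie between 0.43 and 0.52 there, and miR-16-5p is near 0 (0.05).

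The microRNAs whose levels followed the pair most closely were ranked by Spearman's rho with the mean log2 CPM of its 2 rows over the 40 libraries, a description in which all points share the scaling and the ages. let-7i-5p came first with a rho of 0.886, followed by miR-378a-3p (0.812), miR-15b-5p (0.786), miR-93-5p (0.768) and miR-378c (0.745). The median rho over all other microRNAs tested was 0.0144. The rows of the pair had 0.825 with each other, a value of row against row that is not comparable with those against their mean. With the age means subtracted, so that only differences between libraries of 1 age remain, the closest were miR-22-3p (0.757), miR-378a-3p (0.712), miR-378c (0.694), miR-130a-3p (0.653) and let-7i-5p (0.553). miR-15b-5p then dropped to 0.355, and the pair had 0.724 with each other, again row against row. let-7i-5p, miR-378a-3p and miR-378c were thus among the 5 closest on both measures. Of these, miR-378a is itself made in an intron of Ppargc1b, a regulator of mitochondrial metabolism. The miR-378a-3p level averaged 6.54, 6.98, 6.62 and 6.43 log2 CPM from the youngest to the oldest age.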

How the data were processed

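Per the paper's methods, the authors removed adapters with cutadapt, dropped reads under 18 bases, mapped to mm10 and counted mature microRNAs of miRBase with miRDeep2 without mismatches, summing microRNAs with several hairpins; per the labels, quality was checked with FastQC 0.11.5. The deposited raw table holds these counts. The other table deposited holds the authors' normalized signal of the filtered rows, which differs from the counts by a constant factor within each column (relative deviation at most 4.94e-10). Column names give the age but no replicate number of the labels, so each column was 1 unnumbered library of its age, and the tests treated the 40 libraries as independent although the same animals were bled repeatedly.

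The counts were fitted with edgeR 4.0.16 (R 4.3.3): more than 100 reads in 50% of libraries, TMM, glmQLFit and glmQLFTest over age and for 6 contrasts, with Benjamini-Hochberg adjustment over the rows kept, called at 0.05. SE was computed from the fold change and its F statistic, and log2 CPM used a prior count of 2. CPM totals count miR-486 in 2 rows. The fit was tested on simulated data. No library pair within an age was a duplicate (in all 180 pairs the chi-square was at least 19.4 times its degrees of freedom). Reads carry no molecular identifiers, so intervals cover counting error only. Hairpin positions came from GENCODE M21 and sequences from RefSeq (GRCm38.p6). Both members, the AGCAGC search and the marker lists were chosen with earlier results of these data known. Named microRNAs are the members, their 5p strands, the tested AGCAGC rows and the 5 highest by each likeness measure. Alternatives included DESeq2 1.42.0 and limma 3.58.1, and RUVs factors computed here.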

Additional observations from a re-analysis of the deposited data

Results flagged for a closer look

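The miR-103-3p level of 8.38 log2 CPM in 1 library of 13.5 months lay apart from the other 9 of its age, the next being 7.90. Its gap to the next library was 0.486 of the whole range of the group, above the critical value of 0.466 for 10 samples. 12 groups were examined in this way (both levels and the log2 ratio of the rows at each age), of which 1 was flagged, and chance flags about 1 in 20. The same library held 3469 reads of miR-103-3p and 1306 of miR-107-3p and was the highest of its age for miR-107-3p too, at 6.97 log2 CPM, where it was not set apart. The fold changes without it are given with the levels above.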

How the results depend on the processing

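Of 216 recomputed log2 fold changes of the pair, 6 moved by more than the SD between libraries, all with library totals alone: at 15 v 12, 15 v 13.5 and 16.5 v 15 months these gave -1.06, -1.51 and 0.56 for miR-103-3p and -0.88, -1.40 and 0.34 for miR-107-3p. The order of ages held in 5 of 6 pairs of ages, not 6, for both with library totals, and for miR-107-3p also with RLE, DESeq2, the normalized table, RUVs with 2 factors and, at worst, with 1 library left out (range 5 to 6). The 56 miR-107-3p reads of the smallest library limit the precision of its value.

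The number of microRNAs changed over age, 64 of 105, was 135 with more than 1 read in 50% of libraries and 113 without a filter. Without a filter all 1016 rows with a read were fitted. Counts under other filters thus refer to larger sets of rows and are not shares of the 105. The numbers changed between ages were 12, 84, 5 and 66 with library totals at 13.5 v 12, 15 v 12, 16.5 v 12 and 16.5 v 15 months. With the low filter they were 54, 39, 48, 93 and 74 at 13.5 v 12, 15 v 12, 16.5 v 12, 15 v 13.5 and 16.5 v 13.5 months. RUVs with 1 factor gave 54 and 43 at 13.5 v 12 and 15 v 12 months, and with 2 factors 51, 39 and 66 at 13.5 v 12, 16.5 v 12 and 16.5 v 13.5 months. With the age means subtracted, 3 of the 5 microRNAs most like the pair remained among the 5. The causes were not tested.

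No paired analysis with the labels' replicate numbers was possible because the columns carry none of them. The column names share 10 other numbers between ages, whose meaning the labels do not give. As a replicate block, added after the data were seen, they gave 66 microRNAs over age and 0.44, -0.27 and -0.31 for miR-103-3p and 0.51, -0.04 and -0.34 for miR-107-3p against 12 months, from the youngest to the oldest. In a check of the pairing, 24 of 60 pairs with 1 number deviated together (r over 0.1), and for 6 of 40 columns the best match at another age had the same number. The r of the 60 pairs ran from -0.87 to 0.86 with a mean of -0.005. By comparison of ages, pairs with the same number had a mean r of -0.11 to 0.22. Pairs with other numbers had -0.03 to 0.02. The study bled the same mice repeatedly, and whether a number stands for a mouse is not given. The check does not settle it.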
